A study of Homo sapiens with 22 samples.

Results

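The septins are a family of GTP-binding cytoskeletal proteins, and their RNA was followed here in 3 liver cancer cell lines after knockdown of COP1. Members were every probe of the Illumina HumanRef-8 v3 bead array whose annotated symbol was SEPTIN2, SEPTIN4, SEPTIN5, SEPTIN6, SEPTIN7, SEPTIN8, SEPTIN9, SEPTIN10 or SEPTIN11. The table held 16 such probes of 24526 in all, for 8 of the 9 genes listed, among 16922 genes named by its probes. No probe was annotated to SEPTIN8 in the table used here, and SEPTIN8 was not analysed here. The family was chosen on the COP1 siRNA responses of these same arrays, those of SEPTIN2 among them, so the responses are given as a description, without p-values.

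Septins join into rod-shaped complexes of several different members, which link end to end into filaments, bundles and rings. At the cleavage furrow of a dividing cell they hold the actomyosin ring to the membrane and act as a scaffold and a diffusion barrier, and they also associate with actin and microtubules between divisions. By sequence they fall into the SEPTIN2 group, here SEPTIN2, SEPTIN4 and SEPTIN5, the SEPTIN6 group, here SEPTIN6, SEPTIN10 and SEPTIN11, SEPTIN7 by itself, and the SEPTIN3 group, here SEPTIN9. Within a complex, members of one group can often take each other's place, while SEPTIN7 has no such substitute. COP1, a ubiquitin ligase of the RING class, marks transcription factors of the AP-1 and ETS families for degradation.

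Huh7, HepG2 and Hep3B are human liver cancer lines. Cells received either a COP1 siRNA or a negative control siRNA at 15 nM, and RNA was taken 48 h later. The 22 arrays form 6 groups, of 3 arrays for each Huh7 group and 4 for each HepG2 and Hep3B group. The design text names 1 COP1 siRNA, so no second siRNA against the same RNA was compared. Nothing in the labels states that replicates came from separate cultures, and the spread behind each p-value is that between these samples, possibly technical only.

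Levels are the deposited bead intensities on a linear scale, with the authors' background already taken off. Fold changes are on the scale of log2 of the background-modelled intensity plus 50, which understates the change of dim probes. An intensity over 21.8 was taken as above background, and a probe was kept when at least 3 arrays passed that level, which left 16563 probes. Of the 16 septin probes, 11 were kept, for 7 genes. The filter can pass a probe through the arrays where it is high, so counts over the 11 are not counts over the family. A probe was called changed when limma's Benjamini-Hochberg adjusted p over all 16563 probes was below 0.05.

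The COP1 probe ILMN_1661002 read 1765, 1966 and 1671 in the Huh7 control arrays and 270, 302 and 265 in the COP1 siRNA arrays. COP1 fell by 2.40 ± 0.13 (SE) on the log2 scale in Huh7, while its log2 fold change was -1.78 ± 0.11 in HepG2 and -2.05 ± 0.11 in Hep3B, with limma adjusted p of 3.0e-13, 3.7e-12 and 1.1e-12. The COP1 siRNA groups held 15.5%, 25.8% and 21.8% of the control mean intensity. One Huh7 COP1 siRNA array, replicate 3, stood apart from its group, with a root mean square deviation of 0.41 on the log2 scale against 0.12 to 0.27 for the other arrays, although its COP1 level on ILMN_1661002 was as low as that of its group. The arrays labelled Hep3B went against the label's cell type for most of the hepatocyte markers tested. ALB, APOA1, APOB, TTR and TF, genes of secreted hepatocyte proteins, were above background on 0 of these 8 arrays. SERPINA1 and AFP were above background on all 8, with control means of 74.0 and 100. The summed intensity of 7 hepatocyte markers was 129 to 255 in Hep3B controls. It was 69677 to 73457 in Huh7 controls and 132009 to 136312 in HepG2 controls. The part of this in the septin results was not tested, and "Hep3B" below names the label.

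These 4 septin promoter windows are printed because SEPTIN2, SEPTIN10 and SEPTIN11 were the members that COP1 siRNA moved in more than 1 line. Each runs from 250 bases before to 50 bases after a RefSeq transcript start on GRCh38.p14, written 5′ to 3′ on the gene's strand, with matches in capitals. The motifs searched on both strands were TGANTCA for AP-1, CCGGAAGT for ETS factors, CACGTG for the E-box, CCAAT, and GGGCGG for the GC box. SEPTIN2 has several annotated starts, of which the windows at chr2:241315105-241315404 and chr2:241315675-241315974 on the plus strand are shown first and second, followed by SEPTIN10 at chr2:109613917-109614216 on the minus strand and SEPTIN11 at chr4:76949502-76949801 on the plus strand.
SEPTIN2 window 1: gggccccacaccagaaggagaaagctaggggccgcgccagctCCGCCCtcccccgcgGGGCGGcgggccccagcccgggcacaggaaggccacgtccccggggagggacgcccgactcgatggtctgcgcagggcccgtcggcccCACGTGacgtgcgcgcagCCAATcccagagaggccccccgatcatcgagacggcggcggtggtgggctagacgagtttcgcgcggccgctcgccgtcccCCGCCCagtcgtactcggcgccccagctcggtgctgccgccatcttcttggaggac
SEPTIN2 window 2: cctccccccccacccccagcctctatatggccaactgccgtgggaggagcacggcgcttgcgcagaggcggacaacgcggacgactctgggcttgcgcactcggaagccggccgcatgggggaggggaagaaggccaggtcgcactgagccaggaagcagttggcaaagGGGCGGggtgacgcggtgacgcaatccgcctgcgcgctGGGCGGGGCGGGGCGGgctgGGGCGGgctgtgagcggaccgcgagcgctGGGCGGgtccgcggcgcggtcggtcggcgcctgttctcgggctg
SEPTIN10: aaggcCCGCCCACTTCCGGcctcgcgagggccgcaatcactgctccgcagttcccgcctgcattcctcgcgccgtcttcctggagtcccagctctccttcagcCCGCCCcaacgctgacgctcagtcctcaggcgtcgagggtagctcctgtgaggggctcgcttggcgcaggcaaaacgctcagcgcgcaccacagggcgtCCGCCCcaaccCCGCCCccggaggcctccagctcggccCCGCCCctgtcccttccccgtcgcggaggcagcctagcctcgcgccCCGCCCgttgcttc
SEPTIN11: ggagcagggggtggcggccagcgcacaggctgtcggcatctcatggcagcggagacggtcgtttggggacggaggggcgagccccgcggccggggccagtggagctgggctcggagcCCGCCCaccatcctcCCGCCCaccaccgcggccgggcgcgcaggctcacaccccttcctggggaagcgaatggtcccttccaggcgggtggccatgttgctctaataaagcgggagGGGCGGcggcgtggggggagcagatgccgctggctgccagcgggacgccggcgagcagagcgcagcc

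The first SEPTIN2 window held 3 GC boxes, 1 E-box and 1 CCAAT match. The second held 6 GC boxes, 3 of which overlap one another in a single run. A further SEPTIN2 window, at chr2:241315928-241316227, held 5 GC boxes and is not printed. SEPTIN10 held 6 GC boxes and 1 ETS match that directly follows a GC box without overlap, and SEPTIN11 held 3 GC boxes. None of the 4 printed windows held the AP-1 letters, while 5 of all 25 windows of the 9 listed septin genes did. Of the 25, 16 held a GC box, 7 a CCAAT match, 2 the E-box and 1 the ETS letters. Windows of the same gene can overlap, so these are counts with no test. Over 35116 promoter windows of 300 bases, 45% held a GC box, 34.6% a CCAAT match, 7.71% the AP-1 letters, 7.26% the E-box and 4.14% the ETS letters. A match is a description of the letters, not a binding site.

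SEPTIN2, which lies on chr2:241315355-241354027, gave the largest COP1 siRNA responses among the septin probes. Its 2 bright probes, ILMN_1748546 and ILMN_2365711, were called lower in all 3 lines, to 19.7% and 19.9% of the control intensity in HepG2 and to between 49.8% and 58.8% in the other lines. Its 2 dim probes, ILMN_1676737 and ILMN_1747665, were called in no line. The annotation assigns ILMN_1748546 and ILMN_1676737 to the same RefSeq transcript, NM_001008491, ILMN_2365711 to NM_004404 and ILMN_1747665 to NM_001008492. It does not place a probe within its transcript, so the exon or UTR each targets is not stated here.

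On ILMN_1748546 the HepG2 control arrays read 6433, 6541, 6240 and 7252, and the COP1 siRNA arrays 1404, 1064, 1328 and 1418. Every COP1 siRNA array lay far below every control array, and SEPTIN2 was lower by a log2 fold change of -2.29 ± 0.21 (SE, n = 4 and 4). On ILMN_2365711 the same arrays read 6007, 5665, 5715 and 6626 in controls and 1321, 1217, 1108 and 1127 after COP1 siRNA. The groups were again fully apart, with a log2 fold change of -2.26 ± 0.15. In such bulk RNA, fewer cells carrying an RNA and less of it per cell cannot be told apart. The COP1 siRNA means were 19.7% and 19.9% of control on the 2 probes.

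In Hep3B, ILMN_1748546 read 4249, 3722, 4198 and 3850 in controls and 2306, 1721, 1603 and 2354 after COP1 siRNA. ILMN_2365711 read 6271, 5229, 6341 and 6831 in controls and 3523, 3985, 3587 and 3420 after COP1 siRNA. All COP1 siRNA arrays lay below all controls on both probes, and the distance was smaller than in HepG2. The log2 fold changes were -0.995 ± 0.205 and -0.749 ± 0.155, and the means were 49.8% and 58.8% of control.

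In Huh7, ILMN_1748546 read 8234, 8509 and 6312 in controls and 2670, 2621 and 7216 after COP1 siRNA. The array at 7216 is replicate 3, the one that stood apart, and it lay within the range of the controls while the other COP1 siRNA arrays lay far below it. ILMN_2365711 read 11046, 10365 and 10234 in controls and 3722, 4163 and 8106 after COP1 siRNA. Here all COP1 siRNA arrays were below all controls, with replicate 3 again nearest to them. The log2 fold changes were -1.03 ± 0.24 and -1.06 ± 0.18 with all arrays, and -1.50 and -1.40 without replicate 3. On this array COP1 was at 265 on ILMN_1661002, the lowest of its group, and at 204 on ILMN_2408001, the highest, beside 192 and 178, and the part of the array in the SEPTIN2 value was not tested beyond leaving it out.

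**Figure D1:**
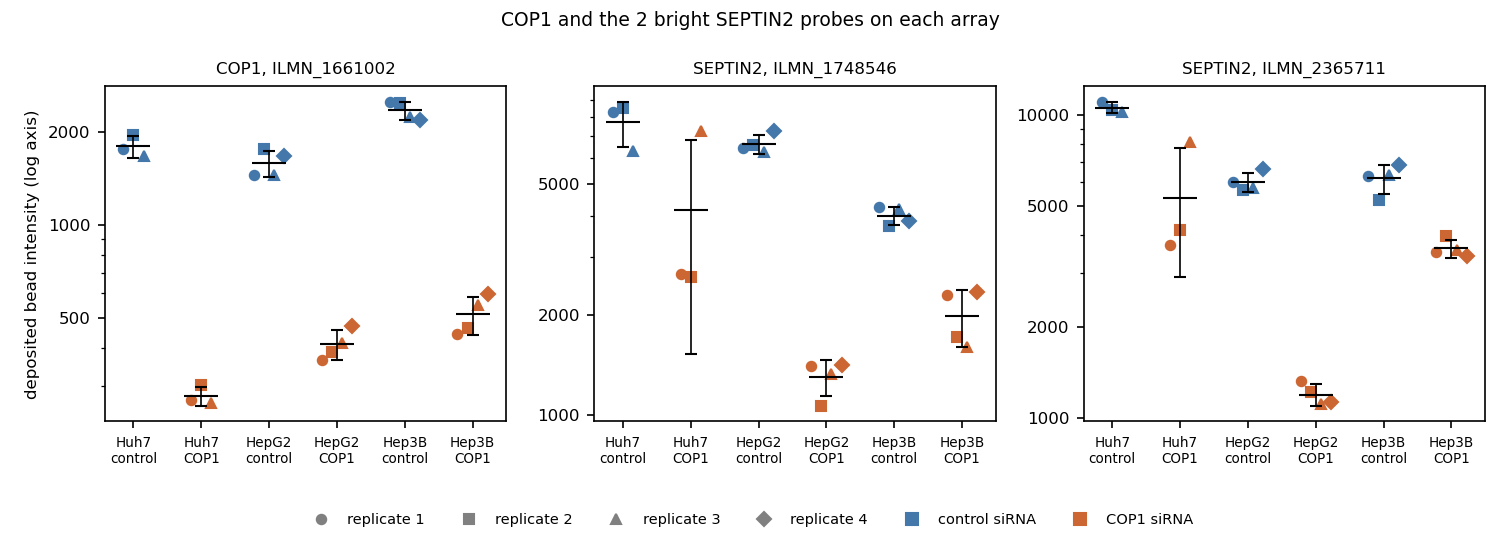
Deposited bead intensity (log axis) of COP1 and the bright SEPTIN2 probes on each array, by line and siRNA. Points are arrays, horizontal bars are group means and whiskers are SD. In HepG2 the COP1 siRNA arrays sit between 1064 and 1418 on ILMN_1748546, below all controls, while Huh7 COP1 siRNA replicate 3 sits at 7216, among its controls.

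The log2 fold changes of the bright SEPTIN2 probes spanned 1.29 on ILMN_1748546 and 1.51 on ILMN_2365711 from the line with the strongest decrease, HepG2, to the line with the weakest, Hep3B. The COP1 log2 fold change was smallest in size in HepG2, at -1.78 on ILMN_1661002, while on the second COP1 probe, ILMN_2408001, it ran from -2.07 to -1.89 over the lines. In the F test of any difference between lines, 4 of the 11 septin probes were called, both bright SEPTIN2 probes, SEPTIN10 and SEPTIN11, where 31.7% of all probes were called. The family was chosen on these responses, so that count is a description and supports no difference between lines.

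The dim SEPTIN2 probe ILMN_1676737, which shares its annotated transcript with ILMN_1748546, did not follow it. In HepG2 it read 54.6, 53.6, 61.0 and 85.0 in controls and 63.6, 38.0, 52.4 and 55.3 after COP1 siRNA. The groups overlapped in all 3 lines, and the log2 fold changes were -0.12 ± 0.11 in HepG2, 0.18 ± 0.13 in Huh7 and 0.12 ± 0.11 in Hep3B. The HepG2 95% interval ran from -0.35 to 0.11, on a scale that compresses changes of dim probes. ILMN_1747665 ranged from -7.35 to 45.7 over all arrays and was above background on 12 of 22, too few for a level in every group. Its log2 fold changes were 0.21 ± 0.14, -0.06 ± 0.12 and -0.18 ± 0.12.

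The other members of the SEPTIN2 group were near background. SEPTIN4, on chr17:58520256-58544328, encodes a septin whose ARTS isoform is known for binding the apoptosis inhibitor XIAP. Its probe ILMN_2251114, assigned to NM_080415, was above background on 7 arrays and ILMN_2294123, assigned to NM_004574, on 6, while ILMN_2402172 was above on 2 and fell outside the filter. The SEPTIN4 log2 fold changes ran from -0.24 to 0.22 over both kept probes and the 3 lines, and none was called. SEPTIN5, on chr22:19714503-19723319, is a septin known from neurons and platelets, and its probe ILMN_1688067 was above background on 1 array, with a highest intensity of 21.9. The filter therefore separated SEPTIN4 probes seen on 6 and 7 arrays from SEPTIN4 and SEPTIN5 probes seen on 2 and 1.

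In the SEPTIN6 group, SEPTIN11 and SEPTIN10 were called higher after COP1 siRNA in Huh7 and in Hep3B and not in HepG2, while SEPTIN6 was called in no line. SEPTIN11, on chr4:76949752-77040154, is a filament-forming partner of SEPTIN7 and SEPTIN9. In Huh7 its probe ILMN_1788778 read 583, 434 and 425 in controls and 700, 835 and 1394 after COP1 siRNA. In Hep3B it read 841, 775, 753 and 743 in controls and 1430, 1128, 1127 and 1640 after COP1 siRNA. All COP1 siRNA arrays were above all controls in both lines, and the highest Huh7 value was that of replicate 3.

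The SEPTIN11 log2 fold change was 0.88 ± 0.19 in Huh7 and 0.71 ± 0.17 in Hep3B, and 0.61 in Huh7 without replicate 3, where it was still called. With Huh7 fitted alone the Huh7 calls of SEPTIN11, SEPTIN10 and SEPTIN2 ILMN_1748546 were lost. In HepG2, SEPTIN11 read 1128, 958, 814 and 1263 in controls and 918, 955, 677 and 780 after COP1 siRNA. Those groups overlapped, with a log2 fold change of -0.29 ± 0.17 and a 95% interval from -0.64 to 0.05. The responses of the 3 lines spanned 1.17 on the log2 scale.

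SEPTIN10, on chr2:109542799-109613966, is a less studied member of the same group. Its kept probe ILMN_2343757 read 65.7, 82.1, 86.8 and 95.4 in Hep3B controls and 192, 153, 162 and 133 after COP1 siRNA. In Huh7 it read 82.4, 120 and 112 in controls and 159, 118 and 299 after COP1 siRNA. The Hep3B groups were fully apart, and the Huh7 groups overlapped, with replicate 3 the highest. The log2 fold changes were 0.57 ± 0.15 in Hep3B and 0.52 ± 0.18 in Huh7, and the Huh7 value was 0.25 and no longer called without replicate 3. In HepG2 it read 81.5, 84.2, 66.0 and 91.2 in controls and 46.9, 52.6, 75.0 and 102 after COP1 siRNA, and the log2 fold change was -0.12 ± 0.15 with overlapping groups. The second SEPTIN10 probe, ILMN_2258958, is annotated to the same transcript, NM_144710, and was above background on 0 arrays.

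SEPTIN6, on chrX:119615724-119693168, is the member found with SEPTIN2 and SEPTIN7 in the best studied septin complex. Its probe ILMN_2399264, assigned to NM_145800, read 133, 165, 198 and 155 in HepG2 controls and 241, 159, 252 and 211 after COP1 siRNA. In Huh7 it read 90.1, 104 and 75.8 in controls and 74.0, 75.2 and 56.3 after COP1 siRNA. The HepG2 groups overlapped, and the Huh7 COP1 siRNA arrays were all below their controls by a narrow margin. The log2 fold changes of SEPTIN6 were 0.29 ± 0.11 in HepG2, -0.20 ± 0.13 in Huh7 and 0.06 ± 0.11 in Hep3B. In HepG2 it was called higher under 3 of 34 alternatives. These were array weights, HepG2 COP1 siRNA replicate 2 left out and HepG2 control replicate 3 left out. The probes ILMN_1661342 and ILMN_1681798, assigned to other SEPTIN6 transcripts, were each above background on 1 array.

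SEPTIN7, on chr7:35800986-35915763, is a core subunit of septin complexes. Its probe ILMN_1729019, assigned to NM_001011553, read 126, 138, 181 and 153 in Hep3B controls and 126, 119, 143 and 115 after COP1 siRNA. In HepG2 it read 42.9, 26.4, 21.2 and 30.5 in controls and -11.7, 2.02, 20.5 and 2.22 after COP1 siRNA. Hep3B levels were far above background and overlapped, while in HepG2 all COP1 siRNA arrays lay below all controls, with 0 of 4 above background against 3 of 4. SEPTIN7 was called lower in HepG2, with a log2 fold change of -0.44 ± 0.13, and the bound set by background made the control level at least 1.08-fold higher. That call was lost when the arrays labelled Hep3B were left out of the fit, and without HepG2 control replicate 1 or COP1 siRNA replicate 1.

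In Huh7, SEPTIN7 read 31.5, 49.5 and 10.1 in controls and 19.4, 7.78 and 28.3 after COP1 siRNA, so 2 of 3 COP1 siRNA arrays were below background and the groups overlapped. The SEPTIN7 log2 fold changes were -0.16 ± 0.15 in Huh7 and -0.16 ± 0.13 in Hep3B, and neither was called. SEPTIN7 has near-identical pseudogene copies, so its signal is uncertain. A probe annotated to one of them, SEPTIN7P11, was above background on 0 arrays.

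SEPTIN9, on chr17:77281499-77500596, is found in septin complexes and is needed late in cytokinesis. Its probe ILMN_1769118 read 12043, 11448 and 12898 in Huh7 controls and 10154, 9309 and 10985 after COP1 siRNA. It read 17044, 19081, 19282 and 22546 in HepG2 controls and 19081, 18050, 18991 and 20105 after COP1 siRNA. In Hep3B the controls were between 14286 and 15196 and the COP1 siRNA arrays between 13202 and 15110. The Huh7 groups did not overlap, and the groups of the other lines did.

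The SEPTIN9 log2 fold changes were -0.26 ± 0.11 in Huh7, -0.03 ± 0.10 in HepG2 and -0.05 ± 0.10 in Hep3B, with no call. The HepG2 interval ran from -0.23 to 0.18 and the Hep3B interval from -0.25 to 0.15.

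**Figure D2:**
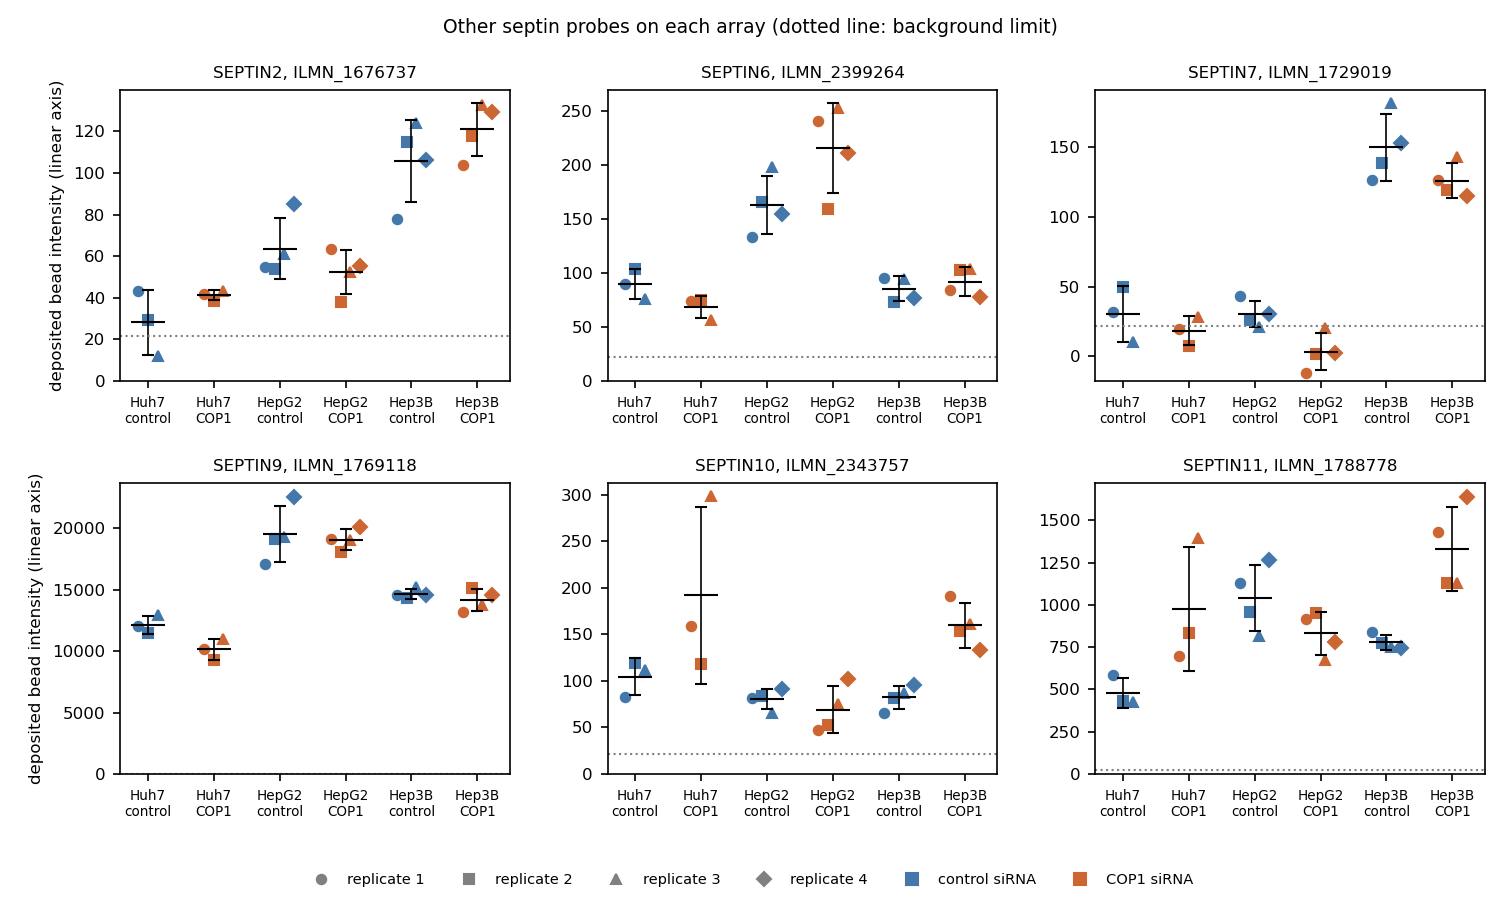
Deposited bead intensity (linear axis) of the dim SEPTIN2 probe ILMN_1676737 and of the SEPTIN6, SEPTIN7, SEPTIN9, SEPTIN10 and SEPTIN11 probes that were kept, on each array, by line and siRNA. Points are arrays, horizontal bars are group means, whiskers are SD and the dotted line is the background level of 21.8. SEPTIN11 lies above its controls after COP1 siRNA in Huh7 and Hep3B and overlaps them in HepG2, and SEPTIN7 is highest in the Hep3B groups.

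Of the 11 kept septin probes, 4 were called in Huh7, 2 higher and 2 lower, where 30.1% of all probes were called, 15.9% higher and 14.2% lower. In HepG2, 3 were called, all lower, where 17.5% of all probes were called, 8.53% higher and 8.93% lower. In Hep3B, 4 were called, 2 higher and 2 lower, where 15% of all probes were called, 7.73% higher and 7.26% lower. The Hep3B share of all probes rests on the fit, since 2484 were called here, 4943 with array weights and 4374 with Hep3B fitted alone, each with 4 septin calls. The COP1 siRNA and control groups did not overlap for 4 septin probes in Huh7, 3 in HepG2 and 4 in Hep3B, against 32.4%, 23.8% and 26.9% of all probes. Called lower in all 3 lines were the 2 bright SEPTIN2 probes, against 1.69% of all probes. These contrasts were in view when the family was chosen, so the counts are a description. For Huh7, HepG2 and Hep3B in turn, the 11 probes had median log2 fold changes of 0.01, -0.12 and -0.07, and all probes had medians of 0.01, 0.02 and -0.01.

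**Figure D3:**
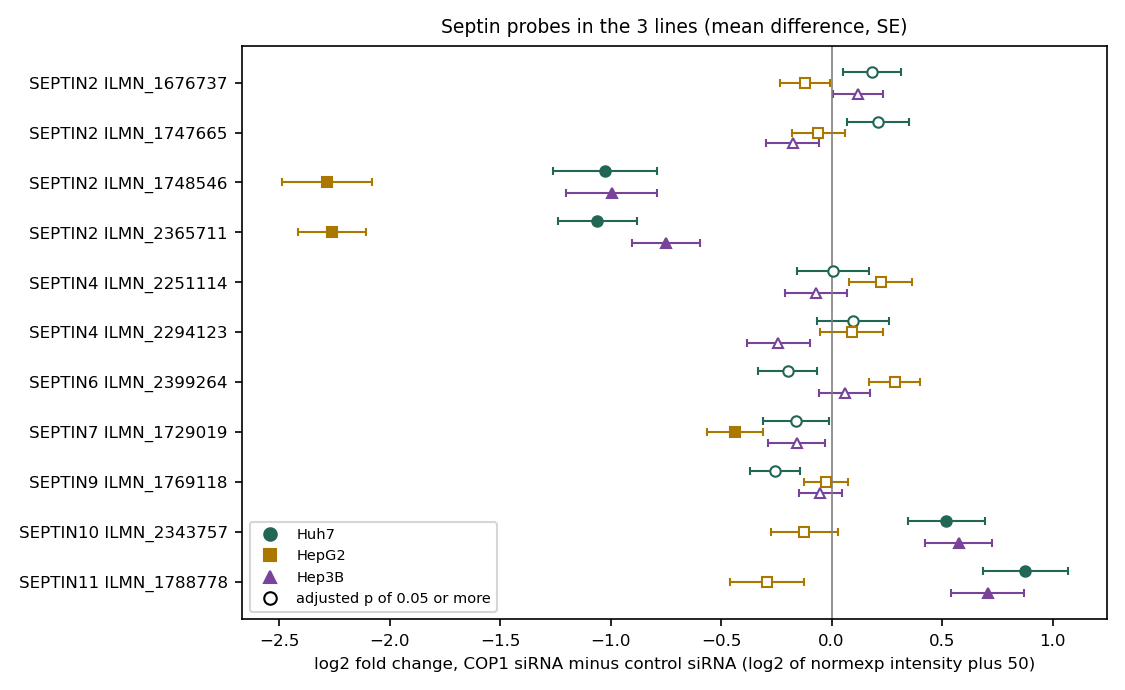
Log2 fold change of COP1 siRNA against control for each kept septin probe in each line, with bars of 1 SE and filled points for called probes. The bright SEPTIN2 probes lie near -2.29 and -2.26 in HepG2 and between -1.06 and -0.75 in the other lines, and SEPTIN10 and SEPTIN11 lie above 0 in Huh7 and Hep3B and below 0 in HepG2.

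The control siRNA arrays show how the lines differ in septin RNA without COP1 knockdown. The members were chosen on COP1 siRNA responses that these control arrays are part of, so the p-values between lines are not independent of that choice. Of the 11 septin probes, 6 differed between HepG2 and Huh7, where 53.1% of all probes did. Between Hep3B and Huh7, 8 differed, where 63.8% did, and between Hep3B and HepG2, 6 differed, where 57.8% did. The septin shares lay near those of all probes, and line and any difference in handling between lines cannot be told apart.

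SEPTIN7 had the widest difference between lines on the log2 scale used, which compresses changes of dim probes. SEPTIN7 was near background in 2 lines, above it on 2 of 3 Huh7 controls and 3 of 4 HepG2 controls. Its control mean was 150 ± 23.7 (SD, n = 4) in Hep3B, 30.3 ± 19.7 (n = 3) in Huh7 and 30.2 ± 9.27 (n = 4) in HepG2. Hep3B was above Huh7 by 1.10 ± 0.14 (SE) on the log2 scale and above HepG2 by 1.09 ± 0.13, with limma adjusted p of 1.1e-07 and 3.7e-08. Between HepG2 and Huh7, SEPTIN7 was not called, and their arrays overlapped.

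SEPTIN11 was ordered HepG2, Hep3B, Huh7, with control means of 1041 ± 196, 778 ± 44.2 and 481 ± 88.6 (SD). HepG2 was above Huh7 by 1.00 ± 0.18 (limma adjusted p = 3.3e-05) and Hep3B above Huh7 by 0.63 ± 0.18 (adjusted p = 0.0036). The neighbours HepG2 and Hep3B were not separated, at -0.37 ± 0.17 for Hep3B minus HepG2 (adjusted p = 0.059). SEPTIN10 was called in no pair, with limma adjusted p of 0.32, 0.33 and 0.94.

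SEPTIN9 was highest in HepG2, at 19488 ± 2275, then Hep3B at 14653 ± 385 and Huh7 at 12130 ± 729. All 3 steps were called at the 0.05 threshold, with p-values that are not independent of how the members were chosen. HepG2 was over Huh7 by 0.68 ± 0.11 (limma adjusted p = 5.2e-06) and Hep3B over Huh7 by 0.27 ± 0.11 (adjusted p = 0.028). Hep3B minus HepG2 was -0.40 ± 0.10 (adjusted p = 0.00096). The Hep3B over Huh7 step was not called at the stricter threshold of 0.01. SEPTIN6 was also highest in HepG2, by 0.53 ± 0.12 over Huh7 (adjusted p = 0.00078), and Hep3B minus HepG2 was -0.57 ± 0.11 (adjusted p = 0.00013).

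The bright SEPTIN2 probes gave different orders of the lines. On ILMN_2365711 Huh7 was highest, at 10548 ± 436 (SD, n = 3), with HepG2 minus Huh7 at -0.81 ± 0.17 (limma adjusted p = 0.00019), Hep3B minus Huh7 at -0.77 ± 0.17 (adjusted p = 0.00024) and Hep3B minus HepG2 at 0.03 ± 0.15 (adjusted p = 0.87). On ILMN_1748546 Huh7 and HepG2 were not separated, at -0.20 ± 0.22 (adjusted p = 0.46), and Hep3B was the lowest, at -0.92 ± 0.22 against Huh7 (adjusted p = 0.00078) and -0.71 ± 0.21 against HepG2 (adjusted p = 0.0041). The dim SEPTIN2 probe ILMN_1676737 ran the other way, with Hep3B above Huh7 by 0.81 (adjusted p = 1.9e-06) and above HepG2 by 0.38 (adjusted p = 0.0050).

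The remaining calls, all on dim probes, were the following. On the SEPTIN2 probe ILMN_1747665, HepG2 was above Huh7 by 0.47 and Hep3B above Huh7 by 0.54. This probe passed the filter on dim probes mainly through the HepG2 and Hep3B arrays, so these differences are no test. The Huh7 controls were above background on 0 of 3 arrays, so the differences are at least 1.06-fold and 1.12-fold. On the SEPTIN2 probe ILMN_1676737, HepG2 was above Huh7 by 0.43 (limma adjusted p = 0.0041). The SEPTIN4 probe ILMN_2294123 was also counted, as higher in Hep3B than in both other lines, but it passed the filter on dim probes mainly through the Hep3B controls, on all 4 of which it was above background, so that difference is no test. Its Hep3B control arrays read 62.0, 24.9, 24.2 and 21.9, the highest on replicate 3. Without that array the septin counts were 6 in place of 8 for Hep3B against Huh7 and 5 in place of 6 for Hep3B against HepG2. The fall for Hep3B against Huh7 is more than the SEPTIN4 call alone, so a further septin call, not named here, was lost.

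For septin probes whose 6 group means ranged over at least 1 on the log2 scale, the genes with the most similar pattern over those means were sought by root mean square difference of centred values. FXR1, an RNA-binding protein of the fragile X family, was nearest to both bright SEPTIN2 probes, at 0.15 for ILMN_2365711 and 0.26 for ILMN_1748546. IARS1 and SEC16A followed at 0.34 each for ILMN_2365711, and ENTR1 and MMGT1 at 0.34 each for ILMN_1748546. Nearest to SEPTIN11 were CAPRIN1 at 0.065, HSPA4L at 0.10 and EDRF1 at 0.10. SEPTIN7 was nearest to PUS1 at 0.088, TROAP at 0.094 and CMSS1 at 0.10, and SEPTIN6 to LAIR2 at 0.055, PIGU at 0.059 and ORMDL3 at 0.064. These are descriptions over 6 means from shared arrays. The measure is not scaled to a probe's range, which was 3.07 for ILMN_2365711 and 1.01 for SEPTIN6. Its sizes therefore cannot be compared between septin probes.

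The proteins that septins work with were counted from lists, on 1 probe per gene, where 32.5% of named genes were called in Huh7 (17.1% higher, 15.4% lower), 18.7% in HepG2 (9.09% higher, 9.58% lower) and 16.3% in Hep3B (8.42% higher, 7.91% lower). Borg proteins, the CDC42 effectors that bind septin filaments, had 5 genes tested, with 1 higher and 2 lower in Huh7, 1 lower in HepG2, and 1 higher and 1 lower in Hep3B. In Huh7, CDC42EP4 fell by 0.88 ± 0.12 on the log2 scale (limma adjusted p = 5.1e-06), CDC42EP1 fell by 0.95 ± 0.15 (adjusted p = 2.8e-05) and CDC42EP2 rose by 0.77 ± 0.13 (adjusted p = 5.1e-05). In HepG2, CDC42EP4 fell by 0.33 (adjusted p = 0.031), and in Hep3B, CDC42EP3 rose by 0.51 (adjusted p = 0.0059) and CDC42EP1 fell by 0.41 (adjusted p = 0.036). The second CDC42EP1 probe was not called in Hep3B. The partner lists were chosen with earlier results of these data known, so p-values of their genes may not be independent of that choice.

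Of 9 septin-binding proteins, 3 were higher and 1 lower in Huh7, 2 higher and 1 lower in HepG2, and 2 higher and 2 lower in Hep3B. Anillin, the scaffold that recruits septins to the furrow, is encoded by ANLN, which rose by 0.92 in Huh7 (limma adjusted p = 0.00062). There MYH9, a non-muscle myosin heavy chain, rose by 0.84 (adjusted p = 2.8e-06). In HepG2, MYH9 rose by 0.33 (adjusted p = 0.019) and NCK1, an adaptor, fell by 0.66 (adjusted p = 0.00025). In Hep3B, the kinesin CENPE rose by 0.67 (adjusted p = 0.0053), while the syntaxin STX1A fell by 0.60 (adjusted p = 0.0018). With Huh7 fitted alone, the Huh7 count of septin-binding genes became 1 higher and 1 lower, with MYH9 still called.

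The abscission machinery had 7 of 8 genes tested, with 2 higher in Huh7, 2 higher in HepG2 and 1 lower in Hep3B. In Huh7, VPS4B, an ESCRT ATPase, rose by 1.11 (limma adjusted p = 1.5e-05) and CEP55, a midbody protein, rose by 1.12 (adjusted p = 0.00027), and with Huh7 fitted alone VPS4B was the 1 called. In HepG2, CHMP4B rose by 0.46 and TSG101 by 0.39 (adjusted p = 0.011 each), and in Hep3B, VPS4A fell by 0.51 (adjusted p = 0.0012). The median log2 fold changes in Huh7, HepG2 and Hep3B were 0.18, 0.03 and -0.06 for the Borg proteins, 0.27, -0.02 and 0.04 for the septin-binding proteins, and 0.02, 0.25 and 0.06 for the abscission genes. All named genes had medians of 0.01, 0.02 and -0.01. Of the septin genes outside the list, SEPTIN1, SEPTIN3, SEPTIN12 and SEPTIN14, 1 was tested, SEPTIN12, and it was not called in any line. Of 10 listed markers of other cell types, 5 were tested. The summed intensity of these 5 fibroblast, endothelial and leukocyte markers was 1709 to 1986 in Huh7 controls and 276 to 708 after COP1 siRNA, and 245 to 383 and 161 to 220 in the Hep3B groups. In HepG2 the sum was 343 to 481 in controls and 395 to 527 after COP1 siRNA. In Huh7 the sum moved with the monocyte marker CD14, whose mean went from 1737 to 387. The endothelial marker PECAM1 was called higher in Huh7 (limma adjusted p = 0.048), with means of 53.1 and 91.0. The PECAM1 call was lost with Huh7 fitted alone. The pericyte and fibroblast marker PDGFRB was called lower in Hep3B, with means of 102 and 34.5, and in HepG2, with means of 153 and 89.2. VWF and PTPRC were above background on 0 arrays of any line. The part of these markers in the septin and partner results was not tested.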

How the data were processed

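RNA from 22 samples was measured on Illumina HumanRef-8 v3 bead arrays, and the values used are the intensity of each probe as deposited by the authors on a linear scale, made with GenomeStudio 2009.1 per the submitters' processing notes. That background had been subtracted was read from the values, 23.7% of which were below 0, and that arrays had been quantile-normalized from their shared distribution. A second deposited table has 44 per-sample columns whose names match no label, and these were not used. Intensities were background-corrected by normexp (limma 3.58.1, R 4.3.3) with an offset of 50, log2-transformed and quantile-normalized. The background level of 21.8 is the 0.98 quantile of the sizes of values below 0. One model of 6 group means was fitted to all arrays (lmFit, eBayes, 16 residual degrees of freedom, prior 9.71), with two-sided p-values adjusted by Benjamini and Hochberg over 16563 probes. The script was tested on simulated data.

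Members, lists, tests and alternatives were chosen with earlier results of these data known. All septin probes are named, COP1 as the targeted gene, up to 3 called members of each partner list per line by smallest p on the gene's brightest probe, and 3 most alike genes per septin probe; some results that this rule would name are not reported here. Bounds for probes below background compare the bright group's mean with the lowest level above background. Gene symbols came from the platform annotation (21834 of 24526 probes had one), and gene positions and promoter sequences from RefSeq on GRCh38.p14. No 2 arrays held identical values, and the number of arrays limits the precision. Alternatives were other background, normalization and weighting choices, a stricter threshold, 1 probe per gene, lines fitted alone, a replicate block, and each array left out.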

Additional observations from a re-analysis of the deposited data

Results flagged for a closer look

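Over 52 combinations of a probe and a group of 4 arrays, 2 held an array far from its group, and chance gives about 1 in 20. On the SEPTIN4 probe ILMN_2294123, Hep3B control replicate 3 read 62.0 against 21.9, 24.2 and 24.9, a gap of 0.911 of the group's range. On the second COP1 probe, ILMN_2408001, HepG2 control replicate 4 read 1632 against 1322, 1343 and 1362, a gap of 0.859 of the range.

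In limma's F test of the COP1 siRNA response between lines, 5 of 13 septin and COP1 probes were under the threshold. For the 4 septin probes among them this is a description and no test, since the family was chosen on those responses. The span from the highest to the lowest log2 fold change was 1.51 for SEPTIN2 ILMN_2365711, 1.29 for SEPTIN2 ILMN_1748546, 1.17 for SEPTIN11 and 0.70 for SEPTIN10. It was 0.63 for COP1 on ILMN_1661002, where the second COP1 probe was not called.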

How the results depend on the processing

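The septin counts moved by over 1.5 times under 2 choices. With each line fitted alone, 1 septin probe was called in Huh7 in place of 4, and 1470 in place of 4979 over all probes, and the Huh7 calls of SEPTIN2 ILMN_1748546, SEPTIN10 and SEPTIN11 were lost. In the other lines fitted alone the calls over all probes rose, from 2892 to 3782 in HepG2 and from 2484 to 4374 in Hep3B, and the cause was not tested. The F test has no value there. With 1 probe per gene, which tests fewer septin probes, 4 differed between Hep3B and Huh7 in place of 8, and 3 between Hep3B and HepG2 in place of 6. Leaving out 1 array at a time gave 3 to 4 septin calls in Huh7, 2 to 4 in HepG2, 4 to 4 in Hep3B, 5 to 6 for HepG2 against Huh7, 6 to 8 for Hep3B against Huh7, 5 to 7 for Hep3B against HepG2 and 3 to 4 for the F test. The SEPTIN10 call in Huh7 was also lost with array weights, without normexp, at a threshold of 0.01 and without control replicate 1. Leaving out the arrays labelled Hep3B, chosen after seeing the data, gave 3 calls in Huh7 and 2 in HepG2. Of 1093 septin log2 fold changes recomputed, 12 changed sign, none of them called in either fit, and 11 moved by more than the replicate spread. The labels do not state that replicate numbers pair the samples. Same-numbered deviations correlated between -0.27 and 0.095, which shows no sign of pairing but cannot settle it with so few arrays. With a replicate block, 4 septin probes were called in Huh7, 2 in HepG2, where SEPTIN7 was lost, and 4 in Hep3B. Dim probes, near 21.8, limit what can be said of SEPTIN4, SEPTIN5 and SEPTIN7.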
